A study of Mus musculus with 12 samples.

Results

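Lipid droplet coat proteins, the lipases that empty droplets, the regulators of those lipases and the proteins that form droplets at the endoplasmic reticulum (ER) were followed at the RNA level in mouse macrophages. The set holds 10 genes chosen by name for their function, out of 47937 genes counted: Plin2 and Plin3 (coat), Pnpla2, Lipe and Mgll (lipases), Abhd5, G0s2 and Hilpda (regulators of Pnpla2), and Bscl2 and Fitm2 (droplet formation). Bone marrow-derived macrophages of C57BL/6 mice, 6 to 8 weeks old and grown with CSF-1, made up 4 groups of 3 libraries. Resting macrophages (M0) received nothing further, and inflammatory macrophages received IFNγ (50 ng/ml) and LPS (20 ng/ml) for 18 h. The remaining groups were resting and inflammatory macrophages given 50 μM T863 over the same 18 h. T863 blocks DGAT1, an enzyme that makes triacylglycerol (TG) from diacylglycerol, and is called DGAT1i here. A compound was the only tool against DGAT1 in these libraries, and the effects of T863 on other targets cannot be told apart from DGAT1 inhibition. The comparisons addressed how the RNAs of droplet turnover respond to inflammatory activation, and how they respond when a major route of TG synthesis is blocked.

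A lipid droplet is a store of TG and steryl esters inside a phospholipid monolayer that carries perilipins. Lipolysis runs in steps: Pnpla2 (adipose triglyceride lipase) removes the first fatty acid of TG, Lipe (hormone-sensitive lipase) acts mainly on diacylglycerol, and Mgll splits monoacylglycerol. Abhd5 activates Pnpla2, whereas G0s2 and Hilpda inhibit it, so that the flux from a droplet depends on the balance of these proteins as well as on the lipase itself. In macrophages, droplets also hold fatty acids that serve as precursors of lipid mediators.

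Libraries held 4996014 to 6621671 counted reads. Values are counts per 1000000 reads (CPM) after TMM scaling in edgeR, where 1 CPM was worth 4.28 to 7.58 reads. Changes are log2 fold changes with the standard error (SE), and a gene was taken as changed when its adjusted p in edgeR (quasi-likelihood) was under 0.05. All 9 macrophage markers examined had reads in every group, and summed to 13283 to 14518 CPM in M0, 16235 to 18258 CPM in M0 with DGAT1i, 8381 to 9030 CPM with IFNγ + LPS and 7979 to 8945 CPM with both. The sum was carried by Lyz2, which fell from 9641 to 2956 CPM with IFNγ + LPS, and of the 9 markers 6 fell and 3 rose in that comparison: Adgre1 went from 1316 to 2706 CPM, Fcgr1 from 91.1 to 857 CPM and Mertk from 71.4 to 459 CPM. The 5 dendritic cell markers summed to 0.133 to 0.835 CPM in M0, 0.264 to 0.710 CPM in M0 with DGAT1i, 8.05 to 11.2 CPM with IFNγ + LPS and 3.50 to 6.77 CPM with both, and the 2 that could be tested rose with IFNγ + LPS. The part of these markers in the results was not tested. The adipocyte markers Adipoq, Cfd and Plin1 had 0 reads in the 12 libraries, and the 7 genes of that list summed to at most 0.417 CPM in a library. Nos2, Il12b, Cxcl9 and Il6 had 0 reads in both M0 groups and were present in both IFNγ + LPS groups. Of the 8 activation genes examined, DGAT1i lowered 5 and raised 1 in inflammatory macrophages, with Il1b going from 77.4 to 23.9 CPM, Tnf from 627 to 386 CPM and Cxcl10 from 2342 to 1286 CPM, and their part in the results was not tested. Scaling mattered for comparisons across activation: by library size alone, the median of all genes moved to -0.46 for IFNγ + LPS against M0 and to -0.43 for the same comparison under DGAT1i. In bulk RNA, fewer cells of a type and less RNA per cell cannot be told apart. The labels name no animal or culture for a library, so the p-values measure the spread between these samples, which may be technical.

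Of the 10 genes, 9 had enough reads to be tested, and G0s2 did not. IFNγ + LPS changed 5 of the 9 against M0: Hilpda, Lipe and Pnpla2 rose, and Mgll and Bscl2 fell. This stood beside 73.3% of all 11760 tested genes (37.1% higher, 36.2% lower), so that a change as such did not set these genes apart. For 4 of the 9, the groups did not overlap, beside 75.4% of all genes. When libraries were scaled by their size alone, all 9 were called (3 higher and 6 lower), where 2340 of all genes were higher and 7002 lower. DGAT1i changed 6 of the 9 in inflammatory macrophages, against 29.8% of all genes (13.5% higher, 16.3% lower): Hilpda, Mgll, Plin3 and Plin2 rose, and Lipe and Abhd5 fell. The libraries did not overlap for 6 of the 9, beside 39.7% of all genes. In the same libraries all 4 granulocyte markers that could be tested rose (median log2 fold change 2.02), and their part in the changes of these 6 genes was not tested. In M0 macrophages DGAT1i raised 4 of the 9 (Hilpda, Pnpla2, Plin3 and Plin2) and lowered none, against 24.4% of all genes changed in either direction (11% higher, 13.4% lower). Here 5 of the 9 did not overlap, beside 37.8% of all genes. The IFNγ + LPS response in the presence of DGAT1i covered 6 of the 9, beside 70.6% of all genes (35.3% higher and 35.3% lower): Hilpda, Lipe, Pnpla2 and Plin3 rose, and Abhd5 and Bscl2 fell. The same 6 did not overlap, beside 72.5% of all genes. When libraries were scaled by their size alone, 2 of the 9 rose and 5 fell in this comparison: Plin3 turned to -0.22 (adjusted p = 6.56e-04, edgeR), Plin2 (-0.50) and Mgll (-0.43) passed as lower, and Pnpla2 went from 0.57 to 0.14 and no longer passed (adjusted p = 0.0627, edgeR). The comparisons share groups of libraries and are not independent of each other. The median log2 fold change of the 9 genes was -0.08 for IFNγ + LPS, 0.11 for DGAT1i in inflammatory macrophages and 0.14 for DGAT1i in M0, beside medians of 0.01, -0.01 and 0.00 over all genes.

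**Figure D1:**
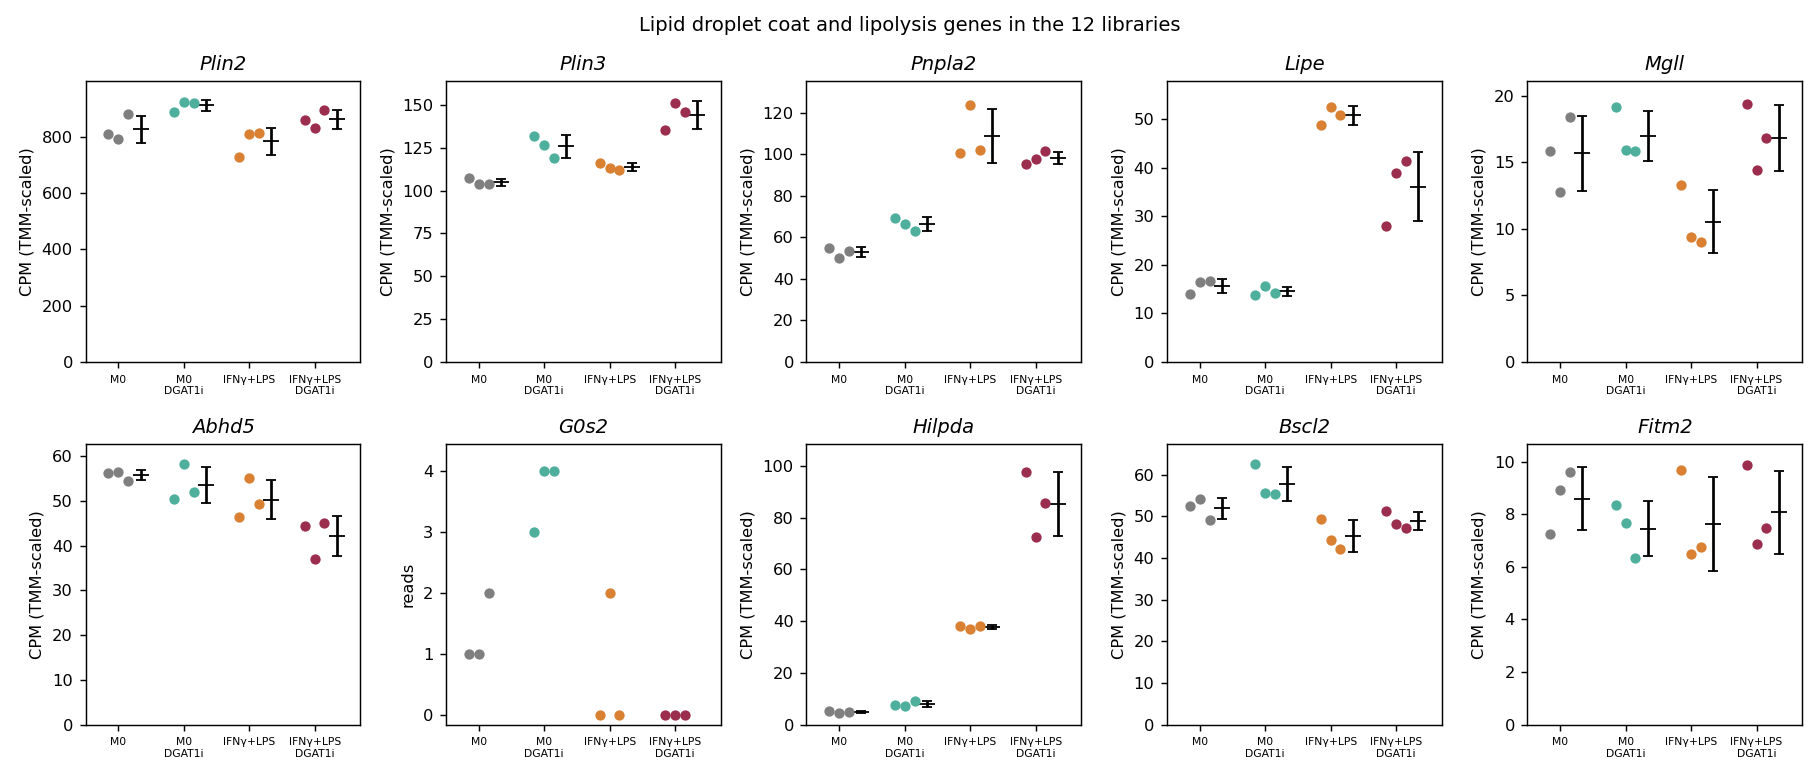
Level of each of the 10 genes in the 12 libraries (y axis, TMM-scaled CPM, or reads for G0s2), by group on the x axis, with 1 point per library and the mean and SD of 3 libraries beside them. Hilpda lay between 72.6 and 97.6 CPM in the 3 inflammatory libraries with DGAT1i and between 4.53 and 5.23 CPM in M0, whereas Plin2 stayed between 730 and 926 CPM throughout.

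The RNA of the coat genes was mostly that of Plin2 (ENSMUSG00000028494.12, GRCm38 chromosome 4, 86648386 to 86670060). Plin2 is the perilipin found in most non-adipose cells and held on droplets as they grow. It was the most abundant of the 10 genes, at 847 CPM over the 12 libraries, above 99.0% of the tested genes. Plin2 gave 810, 793 and 883 CPM in the M0 libraries and 730, 809 and 816 CPM with IFNγ + LPS. These groups overlapped, and the difference of -0.08 (SE 0.05, 95% interval -0.18 to 0.03) did not pass edgeR's test (adjusted p = 0.183). By library size alone it was -0.55 and passed (adjusted p = 1.65e-13, edgeR), where the median of all genes was -0.46. With DGAT1i, Plin2 was at 890, 926 and 922 CPM in M0 macrophages and at 860, 831 and 897 CPM in inflammatory macrophages, in both cases above every library of the matching group without inhibitor. The rise was 0.14 (SE 0.05, adjusted p = 0.0422, edgeR) in M0 and 0.13 (SE 0.05, adjusted p = 0.0473, edgeR) in inflammatory macrophages, close to a 1.10-fold change in each. Both calls sat at the threshold and were lost with DESeq2 (adjusted p 0.113 and 0.0683), RLE size factors (0.0866 and 0.0523), library size alone (0.265 and 0.0636) and no filter on low counts (0.0817 and 0.317). With a filter of mean CPM of at least 1, the call in inflammatory macrophages was lost too (0.0520). In inflammatory macrophages the call was also lost when any of 8 libraries was left out (M0 1 and 2, IFNγ + LPS 1, all 3 of M0 given DGAT1i, and 1 and 3 of IFNγ + LPS plus DGAT1i), with adjusted p up to 0.333. In M0 it was lost without M0 1 or 2, or without M0 with DGAT1i 2 or 3 (adjusted p 0.109 to 0.212).

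Plin3, which moves from the cytosol onto young droplets (ENSMUSG00000024197.9, chromosome 17, 56277476 to 56292873), stood well below Plin2. Per kilobase of exon its mean level in M0 was 27.7 CPM, against 236 CPM for Plin2. Plin3 gave 107, 104 and 104 CPM in M0 and 132, 127 and 119 CPM in M0 with DGAT1i, which do not overlap. The change was 0.26 (SE 0.06, adjusted p = 4.40e-04, edgeR). In inflammatory macrophages Plin3 went from 116, 113 and 112 CPM to 135, 151 and 146 CPM with DGAT1i, a rise of 0.34 (SE 0.06, adjusted p = 1.71e-05, edgeR). Both responses to the inhibitor were thus clear of the replicate spread, and their difference of 0.08 (95% interval -0.09 to 0.25) was not detected (adjusted p = 0.580, edgeR). For IFNγ + LPS alone the fitted change of Plin3 was 0.12 (adjusted p = 0.0809, edgeR), and scaling by library size turned it to -0.35.

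Among the lipases, Pnpla2 (ENSMUSG00000025509.15, chromosome 7, 141455198 to 141460743) carried the highest level. It was at 54.6, 50.1 and 53.5 CPM in M0 and at 100.4, 123.9 and 102.1 CPM with IFNγ + LPS. Every stimulated library was above every resting one, with a 2.07-fold rise (log2 1.05, SE 0.07, adjusted p = 4.30e-19, edgeR). In M0 macrophages DGAT1i took Pnpla2 to 69.3, 66.6 and 62.8 CPM, again without overlap, a rise of 0.33 (SE 0.07, adjusted p = 4.95e-04, edgeR). In inflammatory macrophages with DGAT1i it was at 95.3, 97.6 and 101.3 CPM, a range that overlaps the stimulated libraries without inhibitor. That difference was -0.15 (SE 0.07, 95% interval -0.30 to -0.01) and did not pass (adjusted p = 0.101, edgeR), although without the library IFNγ + LPS 1 it was -0.21 with an adjusted p of 0.0396. The fitted values had opposite signs in resting and inflammatory cells, and the difference between the responses was -0.48 (SE 0.10, adjusted p = 3.97e-04, edgeR). With TMM scaling of all 12 libraries and no replicate block, Pnpla2 was the single gene of the 9 for which this difference passed. This stood beside 18.5% of all genes (8.66% higher, 9.8% lower). Mgll also passed under other settings, and Hilpda and Lipe each passed with 1 particular library left out. The group means ran from M0 (52.7 CPM) through resting with DGAT1i (66.2 CPM) and stimulated with DGAT1i (98.1 CPM) to IFNγ + LPS (108.8 CPM), and the last pair did not differ beyond its spread.

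Lipe (ENSMUSG00000003123.15, chromosome 7, 25379527 to 25398710) rose more than Pnpla2 from a lower level. Its M0 libraries had 13.9, 16.5 and 16.6 CPM, and those with IFNγ + LPS had 48.8, 52.6 and 51.0 CPM. This was a 3.23-fold rise (log2 1.69, SE 0.11, adjusted p = 2.39e-20, edgeR). DGAT1i lowered Lipe in inflammatory macrophages to 28.0, 39.0 and 41.3 CPM, all below the stimulated libraries without inhibitor (log2 -0.50, SE 0.10, adjusted p = 1.35e-04, edgeR). In M0 macrophages with DGAT1i it stayed at 13.8, 15.6 and 14.1 CPM and overlapped M0 (log2 -0.12, 95% interval -0.38 to 0.15, adjusted p = 0.579, edgeR). The 2 inhibitor responses differed by -0.38 with an adjusted p of 0.102, which did not pass, and by -0.49 with 0.0442 without the library IFNγ + LPS with DGAT1i 3. An antisense gene, 4732471J01Rik, shares 918 exon bases with Lipe and had 67 reads in all against 1956 for Lipe. Whether reads were counted by strand is not given in the sources used here.

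Mgll (ENSMUSG00000033174.17, chromosome 6, 88724412 to 88828360) moved against the other lipases. It had 15.8, 12.8 and 18.4 CPM in M0 and 13.3, 9.36 and 8.99 CPM with IFNγ + LPS, so that the highest stimulated library exceeded the lowest resting one. The fall was -0.58 (SE 0.16, adjusted p = 0.00104, edgeR). DGAT1i raised Mgll in inflammatory macrophages, to 19.3, 14.4 and 16.8 CPM, above every stimulated library without inhibitor (log2 0.69, SE 0.17, adjusted p = 0.00116, edgeR). M0 macrophages with DGAT1i had 19.1, 15.9 and 15.8 CPM, a change of 0.12 (95% interval -0.15 to 0.39) that did not pass (adjusted p = 0.582, edgeR). The inhibitor responses differed by 0.57 (SE 0.22), which did not pass (adjusted p = 0.0559, edgeR). It passed with RLE size factors (0.59, adjusted p 0.0477), library size alone (0.62, 0.0379) and a replicate block (0.57, 0.0377, edgeR). That difference also passed without M0 2 (0.70, adjusted p 0.0173), IFNγ + LPS 1 (0.75, 0.0152), M0 with DGAT1i 1 (0.67, 0.0316) or IFNγ + LPS with DGAT1i 2 (0.67, 0.0305).

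Of the regulators of Pnpla2, Hilpda had the largest fitted change of the 9 tested genes in each comparison of 2 groups. Hilpda, also known as HIG2, is a small droplet protein that inhibits Pnpla2 and is a textbook target of the hypoxia-inducible factors (ENSMUSG00000043421.8, chromosome 6, 29272488 to 29275446). Resting libraries had 5.23, 4.53 and 4.87 CPM, and libraries with IFNγ + LPS had 37.9, 36.9 and 38.2 CPM. The rise was 7.71-fold (log2 2.95, SE 0.14, adjusted p = 4.18e-26, edgeR), and 527 of the 11760 tested genes had a larger log2 fold change. DGAT1i took Hilpda further in inflammatory macrophages, to 97.6, 72.6 and 85.5 CPM. All 3 values were well above the stimulated libraries without inhibitor, a 2.26-fold rise (log2 1.18, SE 0.09, adjusted p = 2.37e-15, edgeR) that 230 genes exceeded. In M0 macrophages the inhibitor gave 7.57, 7.24 and 9.11 CPM, a 1.64-fold rise from a low level (log2 0.71, SE 0.18, adjusted p = 0.00232, edgeR). The 4 groups did not overlap with each other in any pair compared, and they rose in the order M0, resting with DGAT1i, IFNγ + LPS alone, and both. The difference between the inhibitor responses was 0.47 (95% interval 0.04 to 0.89) and did not pass (adjusted p = 0.123, edgeR). It did so without the library IFNγ + LPS with DGAT1i 2, at 0.57 and an adjusted p of 0.0487. Granulocyte markers moved with Hilpda in this comparison: the 9 genes of that list summed to 15.2 to 25.5 CPM with IFNγ + LPS and to 63.0 to 81.0 CPM when DGAT1i was added, with Ly6g and Retnlg at 0 reads in all groups. The list summed to 31.6 to 38.7 CPM in M0 and to 22.9 to 29.0 CPM in M0 with DGAT1i, and its part in the results for Hilpda was not tested.

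The promoter windows of the 3 of 9 tested genes that rose with IFNγ + LPS are shown, where 37.1% of all genes rose. Each runs from 250 bases before to 50 bases after a RefSeq transcript start (GRCm38.p6), 5′ to 3′ on the strand of the gene, and capitals mark matches on either strand to the motifs searched. These were ACGTG and GCGTG (cores of the hypoxia response element), CACGTG (an E-box, which contains ACGTG), an NF-κB motif of 10 letters and a pair of AGGTCA sites 1 base apart (PPAR). Hilpda has 2 overlapping windows, at chr6:29272238-29272537 and chr6:29272376-29272675 on the plus strand. The Pnpla2 window is chr7:141454938-141455237 on the plus strand, and the upstream of the 2 Lipe windows is chr7:25395938-25396237 on the minus strand. The other Lipe window had 0 matches to any of these motifs and is not shown.
Hilpda first start: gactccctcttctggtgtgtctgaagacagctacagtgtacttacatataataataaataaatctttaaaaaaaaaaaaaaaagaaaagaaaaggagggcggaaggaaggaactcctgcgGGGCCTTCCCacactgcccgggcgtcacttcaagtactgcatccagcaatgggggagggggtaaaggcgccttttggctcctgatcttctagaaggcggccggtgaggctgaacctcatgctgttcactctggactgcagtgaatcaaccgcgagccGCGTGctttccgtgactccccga
Hilpda second start: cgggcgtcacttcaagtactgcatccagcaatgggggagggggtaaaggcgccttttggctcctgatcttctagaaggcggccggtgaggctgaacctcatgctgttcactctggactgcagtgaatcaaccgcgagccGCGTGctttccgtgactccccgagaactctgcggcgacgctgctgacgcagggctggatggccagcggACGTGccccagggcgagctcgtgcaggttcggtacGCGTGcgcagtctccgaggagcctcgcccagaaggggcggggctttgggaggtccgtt
Pnpla2: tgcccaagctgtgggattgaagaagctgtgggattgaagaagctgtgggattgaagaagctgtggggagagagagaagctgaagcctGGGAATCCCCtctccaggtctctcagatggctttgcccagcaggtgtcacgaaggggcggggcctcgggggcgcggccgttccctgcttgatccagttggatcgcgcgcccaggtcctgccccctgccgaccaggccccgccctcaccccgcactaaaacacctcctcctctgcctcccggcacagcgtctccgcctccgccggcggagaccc
Lipe upstream start: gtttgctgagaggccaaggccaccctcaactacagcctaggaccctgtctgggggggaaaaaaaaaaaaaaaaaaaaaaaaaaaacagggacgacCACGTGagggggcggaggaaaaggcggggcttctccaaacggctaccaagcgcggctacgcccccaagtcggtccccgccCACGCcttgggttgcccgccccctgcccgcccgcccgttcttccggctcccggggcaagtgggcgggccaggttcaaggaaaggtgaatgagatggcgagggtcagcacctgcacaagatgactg

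Counted from the start site, with the first transcribed base as +1, the NF-κB motif began at -130 in the first Hilpda window and at -163 in the Pnpla2 window, on the minus strand in the latter. ACGTG began at -43 in the second Hilpda window, which also held GCGTG at -111 and -8. The Lipe window held CACGTG at -155 and GCGTG at -75 on the minus strand. Over the 15 windows of the 10 genes, the NF-κB motif was found in 2, ACGTG in 5, CACGTG in 3 and GCGTG in 10. By gene, these were 2, 4, 3 and 8 of the 10. The GCGTG at -111 of the second Hilpda window also lies in the first, so windows of a gene are not separate units. Of all 32851 windows of this length, 4.79% held the NF-κB motif, 19.6% ACGTG, 7.15% CACGTG and 32.4% GCGTG. The paired AGGTCA sites were in 0 of the 15 windows and in 0.0396% of all windows. Mgll, which fell with IFNγ + LPS, held ACGTG in both of its windows, CACGTG in 1 and GCGTG 2 times in one window and 6 times in the other, and Plin2 held CACGTG at -4. These matches describe letters in a window and were not tested against expression.

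Abhd5, the co-activator of Pnpla2 (ENSMUSG00000032540.15, chromosome 9, 122351608 to 122381524), did not follow the lipase. It was at 56.4, 56.5 and 54.6 CPM in M0 and at 46.5, 55.1 and 49.3 CPM with IFNγ + LPS. Those groups overlapped (log2 -0.15, 95% interval -0.31 to 0.02, adjusted p = 0.106, edgeR), and the value was -0.21 without IFNγ + LPS 2 (adjusted p 0.0390) and -0.62 by library size alone (2.32e-09). With DGAT1i, Abhd5 was at 50.5, 58.2 and 52.1 CPM in M0 macrophages and at 44.5, 37.1 and 45.1 CPM in inflammatory macrophages. The latter were below all stimulated libraries without inhibitor, and the fall was -0.26 (SE 0.09, adjusted p = 0.0271, edgeR). That call was lost with DESeq2 (adjusted p = 0.0817), in a fit of the 2 groups alone (0.0571), and without IFNγ + LPS 2 (-0.19, 0.176) or IFNγ + LPS with DGAT1i 2 (-0.18, 0.206). Under DGAT1i, IFNγ + LPS lowered Abhd5 by a log2 value of -0.35 (SE 0.09, adjusted p = 4.32e-04, edgeR). An antisense gene, A730085K08Rik, matches 30.1% of the longest Abhd5 transcript at 95% identity or more and had 0 reads.

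G0s2, the second inhibitor of Pnpla2 (ENSMUSG00000009633.3, chromosome 1, 193272161 to 193273217), was near the limit of detection. The M0 libraries had 1, 1 and 2 reads, those with IFNγ + LPS 0, 2 and 0, and those of M0 with DGAT1i 3, 4 and 4. The 3 inflammatory libraries with DGAT1i had 0 reads, which allows up to 0.215 CPM over that group. In M0 macrophages the 11 reads with inhibitor against 4 without gave a ratio of 2.68, with a 95% counting interval of 0.794 to 11.5 that includes no change. Against the inflammatory macrophages with DGAT1i, G0s2 in M0 with DGAT1i was at least 2.31-fold higher, with 3 reads taken as the limit for that group as a whole, and the exact 95% counting interval of this ratio (11 against 0 reads) begins at 1.58. These intervals cover counting error only.

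The genes of droplet formation had small changes after TMM scaling, and larger ones for IFNγ + LPS by library size alone (-0.67 for Bscl2 and -0.66 for Fitm2, adjusted p 2.95e-10 and 0.00186, edgeR). Bscl2 encodes seipin, which shapes droplets where they bud from the ER (ENSMUSG00000071657.12, chromosome 19, 8837467 to 8848683), and was at 52.6, 54.1 and 49.0 CPM in M0 and 49.5, 44.3 and 42.1 CPM with IFNγ + LPS. One stimulated library lay inside the resting range, and the fall of -0.20 (SE 0.08, adjusted p = 0.0275, edgeR) was lost with DESeq2 (0.0613) and without M0 1 (-0.19, 0.0682), M0 2 (-0.17, 0.105), IFNγ + LPS 2 (-0.18, 0.0883) or IFNγ + LPS 3 (-0.15, 0.162). With DGAT1i, Bscl2 had 62.6, 55.5 and 55.4 CPM in M0 macrophages and 51.3, 48.2 and 47.2 CPM in inflammatory ones. Neither response to the inhibitor passed (0.16, adjusted p = 0.132, and 0.11, adjusted p = 0.362, edgeR), although the M0 libraries with and without it did not overlap. IFNγ + LPS under DGAT1i lowered Bscl2 by a log2 value of -0.24 (SE 0.08, adjusted p = 0.00762, edgeR), which was lost without M0 with DGAT1i 1 (-0.18, 0.0704). Fitm2, which binds neutral lipid in the ER and helps partition it into droplets (ENSMUSG00000048486.6, chromosome 2, 163466379 to 163472629), was at 6.33 to 9.88 CPM in the 12 libraries. All 4 groups overlapped, and with TMM scaling no comparison passed (adjusted p 0.380 to 0.774, edgeR). Its 95% interval for DGAT1i in inflammatory macrophages, -0.33 to 0.53, leaves room for changes of the size seen in Plin3.

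**Figure D2:**
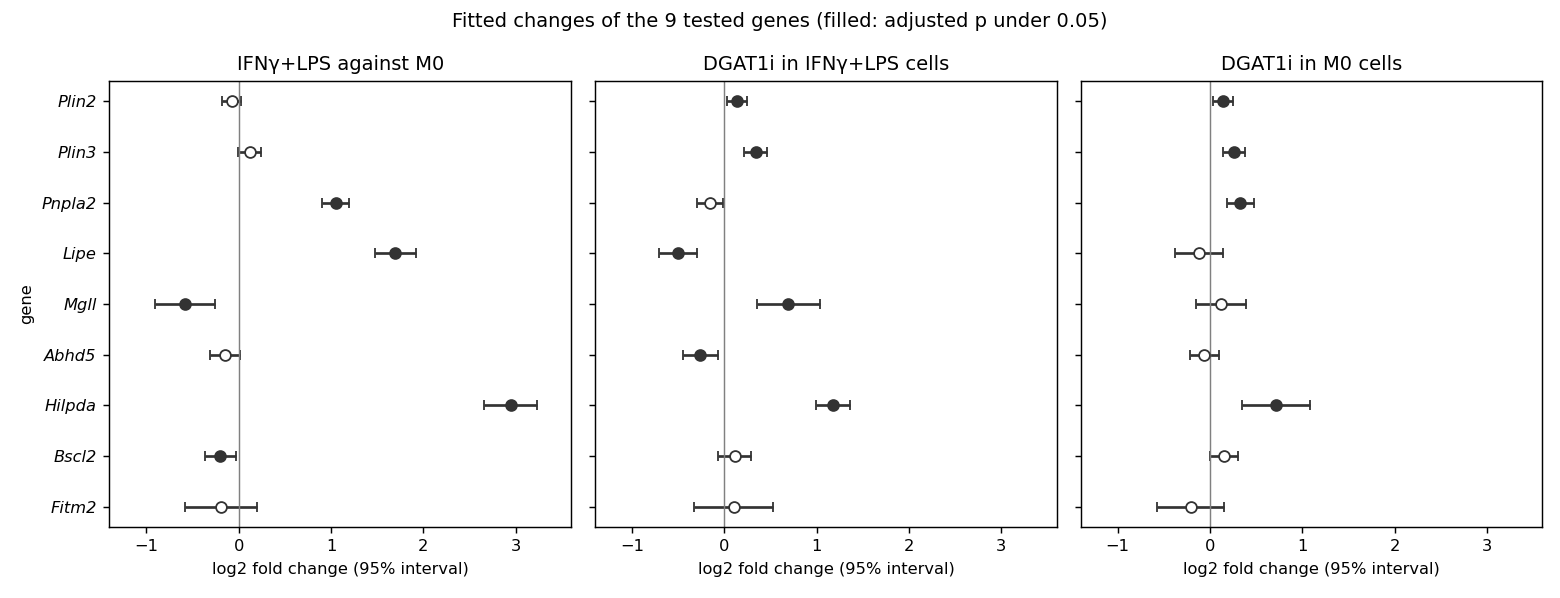
Log2 fold change with its 95% interval (x axis) of the 9 tested genes (y axis) for IFNγ + LPS cells against M0, for DGAT1i in stimulated cells and for DGAT1i in M0 cells, with filled points where the adjusted p was under 0.05. Hilpda is furthest to the right in each panel (2.95, 1.18 and 0.71), and Lipe and Mgll take opposite sides in the first panel and swap sides in the second.

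Since library scaling bears on activation, genes of the same cascade were also compared as ratios within a library, per kilobase. No library scaling can change them. Their size depends on the length used, here the summed exons of a gene, whereas their change between groups does not. Summed exons were 3512 bases for Plin2 and 5956 for Abhd5, against 1888 and 3157 for the longest transcript. For Plin3 they were 3786 against 3645, and for Pnpla2 3020 against 2625. Hilpda RNA was 0.253 times that of Pnpla2 in M0, 0.328 times with DGAT1i, 0.952 times with IFNγ + LPS and 2.36 times with both. Hilpda RNA was thus below that of Pnpla2 in all resting libraries, close to it with IFNγ + LPS and above it in all 3 libraries with both. The log2 ratio rose by 1.91 (SE of the difference 0.11) with IFNγ + LPS. When DGAT1i was added to it, the log2 ratio rose by a further 1.31 (SE 0.17), and neither pair of groups overlapped. Abhd5 went the other way, from 0.537 times Pnpla2 in M0 to 0.235 times with IFNγ + LPS, a log2 difference of -1.19 (SE 0.06) without overlap. Adding DGAT1i to IFNγ + LPS moved this ratio by -0.11 (SE 0.10), and the libraries overlapped.

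Pnpla2 RNA gained on Plin2 RNA with activation: it was 0.0740 times Plin2 in M0 and 0.161 times with IFNγ + LPS (log2 difference 1.12, SE 0.10). DGAT1i moved the ratio by -0.28 (SE 0.09) in inflammatory macrophages and by 0.19 (SE 0.07) in M0 macrophages, each without overlap. Mgll, which acts last in the cascade, was 0.175 times Pnpla2 in M0, 0.0570 times with IFNγ + LPS and 0.101 times when DGAT1i was added. Plin2 was 8.50 times Plin3 in M0, 7.43 times with IFNγ + LPS, 7.83 times in M0 with DGAT1i and 6.45 times with both. This log2 ratio moved without overlap by -0.20 (SE 0.09) with IFNγ + LPS and by -0.28 (SE 0.09) with IFNγ + LPS under DGAT1i. A two-sided exact permutation test of 3 against 3 libraries cannot give less than p = 0.1, which 16 of the 20 ratio comparisons reached (adjusted p = 0.125), so that the ratios rest on their size and the absence of overlap.

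**Figure D3:**
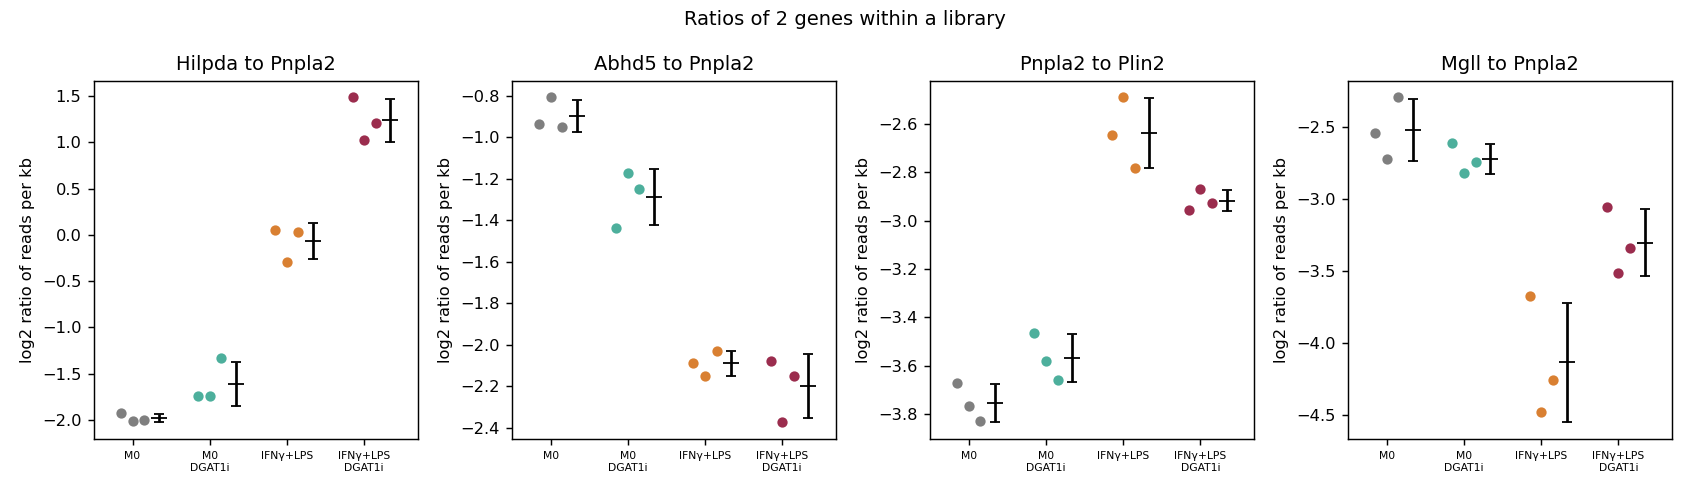
Log2 ratio of reads per kilobase of 2 genes within each library (y axis) by group (x axis), with 1 point per library and the mean and SD of 3 libraries. The Hilpda to Pnpla2 ratio climbed from 0.253 in M0 to 2.36 with IFNγ + LPS and DGAT1i, while the Abhd5 to Pnpla2 ratio dropped from 0.537 to 0.217.

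Genes with the pattern nearest to 3 of the members were sought over the 12 libraries, by the root mean square difference of centered log2 CPM. Nearest to Hilpda were Ier3 (0.214), Acss2 (0.222) and Alas1 (0.257). Acss2, which makes acetyl-CoA from acetate, was at 2.33 CPM in M0, 3.82 with DGAT1i, 20.9 with IFNγ + LPS and 40.7 with both. Nearest to Pnpla2 were Fnip2 (0.0662), Fcgr3 (0.0759) and Kctd6 (0.0812), and nearest to Plin2 were Mia3 (0.0475), Picalm (0.0575) and Gatad1 (0.0577). Fnip2, a partner of folliculin, went from 434.8 CPM in M0 to 896.4 CPM with IFNγ + LPS and was at 842.5 CPM with both. The libraries share their depth and scaling in this measure, and it carries no test.

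The other perilipins and the CIDE droplet proteins were nearly silent. None of the 6 listed could be tested, and Plin1, Plin5 and Cidea had 0 reads in all libraries. Of the enzymes that fill the droplet core, Dgat1 rose with IFNγ + LPS from 12.7 ± 2.4 to 18.7 ± 1.3 CPM (SD, n = 3; log2 0.55, adjusted p = 2.91e-04, edgeR), but only to 0.09 with library size alone (adjusted p = 0.570). With DGAT1i in inflammatory macrophages the difference of Dgat1 RNA was -0.01 (adjusted p = 0.957, edgeR). Dgat2, the second TG synthase, had too few reads to test, with 5 in M0 and 23 with IFNγ + LPS, a ratio of 6.34 (95% counting interval 2.36 to 21.4). M0 with DGAT1i had 17 Dgat2 reads, a ratio of 3.31 to M0 (1.17 to 11.5). The steryl ester synthase Soat1 rose with DGAT1i in both states (0.26 in M0, 0.24 in inflammatory macrophages, adjusted p 1.09e-04 and 2.29e-04, edgeR), and Soat2 rose with IFNγ + LPS (2.65, adjusted p = 4.54e-10, edgeR).

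Of 10 other neutral lipid hydrolases tested, IFNγ + LPS lowered 7 and raised 2, beside 36.2% of all genes lower and 37.1% higher. By library size alone it lowered 8 and raised 0, where 7002 of the 11760 genes were lower and 2340 higher. The 4 largest changes were those of the diacylglycerol lipases Daglb (-2.96) and Dagla (-2.26), of Abhd12 (-1.24), which hydrolyses monoacylglycerol and lysophosphatidylserine, and of Ddhd2 (-1.04). Pnpla2 and Lipe, which are not in this list, rose in the same comparison. DGAT1i raised 3 and lowered 1 of the 10 in inflammatory macrophages, beside 13.5% and 16.3% of all genes: Dagla (0.77), the steryl ester hydrolase Nceh1 (0.37) and Ddhd1 (0.28) rose, and Pnpla7 (-0.29) fell. Of 9 tested genes of cAMP signaling, which acts on Lipe and perilipins through protein kinase A, 8 fell and 1 rose with IFNγ + LPS, by TMM and by library size alone, beside the all-gene shares and counts just given for each scaling. The median log2 fold change was -1.30 over this list and -0.76 over the hydrolases, against 0.01 over all genes. The phosphodiesterase Pde4b, which breaks down cAMP, rose by 4.57, whereas Pde3b (-2.29) and the kinase subunit Prkacb (-1.88) fell. DGAT1i then lowered Pde4b (-0.74) and raised Prkar2b (0.74), Prkacb (0.39) and Prkaca (0.26) in inflammatory macrophages. Adjusted p values of all genes named here were under 0.05 in edgeR, the highest being 0.0393 for Ddhd1.

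The 4 fatty acid carriers all rose with DGAT1i in inflammatory macrophages, beside 13.5% of all genes: Fabp4 by 1.41, Fabp3 by 0.95, Fabp5 by 0.82 and Dbi by 0.38 (adjusted p up to 0.00161, edgeR). The granulocyte markers also rose in this comparison, and their part in this result was not tested. Fabp4 and Fabp5 also rose with DGAT1i in M0, by 1.04 and 0.93, and Fabp4 reached 70.2 ± 6.9 CPM there from 34.2 ± 2.6 CPM (SD, n = 3). With IFNγ + LPS alone Fabp4 (-2.05), Dbi (-1.57) and Fabp5 (-0.55) fell and Fabp3 rose (2.31). Of 16 other genes of droplet formation and the droplet surface, IFNγ + LPS raised 5 and lowered 6 (by library size alone 4 and 11), a share near the 73.3% of all genes changed in either direction, with the acyl-CoA synthetase Acsl3 (-2.98), the lipid transfer protein Vps13c (-1.26), the droplet surface protein Aup1 (1.01) and the acyltransferase Lpcat1 (-0.90) changing the most. DGAT1i changed 5 of these 16 in inflammatory macrophages, beside 29.8% of all genes. Among them the acyltransferase Tmem68 fell by 0.47 there and rose by 0.46 in M0, and this difference between the responses passed (-0.93, adjusted p = 3.81e-06, edgeR), as it did for Pnpla2.

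Transcription factors with known action on these genes split 4 up and 4 down of 10 with IFNγ + LPS (by library size alone 3 and 6), again near the 73.3% of all genes changed. Hif1a, which acts on Hilpda in hypoxia, rose from 98.9 ± 6.0 to 712 ± 22 CPM (SD, n = 3; log2 2.85, adjusted p = 2.96e-44, edgeR), and DGAT1i lowered it by 0.21 in inflammatory macrophages (adjusted p = 0.00163, edgeR) while Hilpda rose. Nr1h3, which encodes the sterol sensor LXRα, rose by 2.79 and fell by 1.28 when DGAT1i was added (adjusted p 1.82e-11 and 1.06e-06, edgeR). Pparg fell with IFNγ + LPS (-2.20) and again with DGAT1i (-0.78), whereas Ppard rose in both (1.08 and 0.69, adjusted p 1.28e-07 and 1.78e-04, edgeR). Egr1 fell with IFNγ + LPS by 2.79, and Epas1 had 62 reads in M0 and 1 with IFNγ + LPS, a ratio of 45.0 (95% counting interval 7.78 to 1804).

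**Figure D4:**
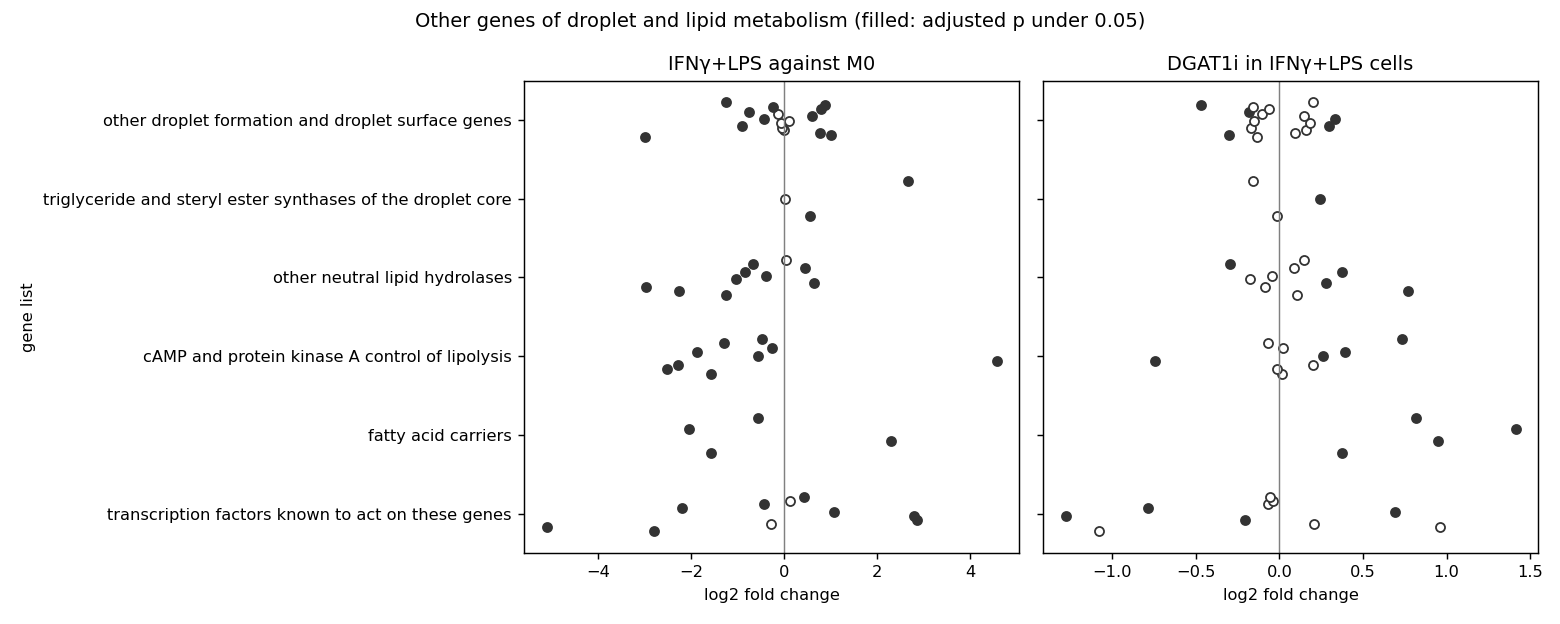
Log2 fold change (x axis) of each tested gene of 6 further lists (y axis) for IFNγ + LPS against M0 and for DGAT1i in IFNγ + LPS cells, with 1 point per gene, filled where the adjusted p was under 0.05. The x axes of the panels differ. All 4 fatty acid carriers lie to the right of 0 under DGAT1i, and 8 of 9 genes of the cAMP list lie to the left of 0 under IFNγ + LPS.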

How the data were processed

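The authors deposited raw read counts per gene, by Ensembl identifier and without normalization, for 12 libraries. The submitters' processing notes name GRCm38 and DESeq2; aligner, counter, annotation and strand setting are not stated in what was read. The labels name a NEBNext kit, the study's methods a TruSeq stranded kit. In 2 libraries of M0 with DGAT1i the compound number differs in the labels and was read as T863. Groups came from the labels, symbols and positions from GENCODE M21 (627 identifiers had no symbol), and promoters from RefSeq (GRCm38.p6; all 10 genes matched).

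Counts were fitted in R 4.3.3 with edgeR 4.0.16 (filterByExpr, 11760 genes kept; TMM; glmQLFit, robust, 4 group means over the 12 libraries), with Benjamini-Hochberg adjustment over all tested genes. The common biological coefficient of variation was 0.0507. Ratios within a library were tested by exact permutation, and low counts were given exact 95% intervals. On simulated data of 11760 genes with 200 changed 2-fold, 86% were found for IFNγ + LPS against M0 and for DGAT1i in IFNγ + LPS, 91% for DGAT1i in M0, 87.5% for IFNγ + LPS under DGAT1i and 73.5% for the difference of responses. Replicate pairs differed by 1.90 to 3.96 times counting noise (chi-square per gene), so none was a copy of another. Gene copies were sought by BLAST 2.17.0 (95% identity, 20% coverage), and figures were drawn with matplotlib 3.10.9 (Python 3.11.15).

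All 10 genes are named, and of other lists Dgat1, Dgat2 and the called genes with the 4 largest changes in a comparison, with the 3 genes nearest in pattern to Plin2, Pnpla2 and Hilpda. A gene and a motif that these rules name are not reported here. Members, lists and tests were chosen with earlier results of these data known. Alternatives were RLE size factors, library size alone, no filter or a mean CPM of at least 1, DESeq2 1.42.0, fits of 2 groups, a threshold of 0.1, a replicate block, and leaving out each library.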

Additional observations from a re-analysis of the deposited data

Results flagged for a closer look

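One result stood out because the response to DGAT1i differed between resting and inflammatory macrophages by a test of the difference itself. Pnpla2 rose by 0.33 with DGAT1i in M0 and stood at -0.15 with DGAT1i in inflammatory macrophages, a difference of -0.48 on the log2 scale (SE 0.10, adjusted p = 3.97e-04, edgeR). The difference kept its sign and passed in every alternative fitted to all 4 groups and with each library left out, between -0.54 and -0.38; fits of 2 groups cannot give it. The groups of 3 libraries are too small for a test of single outlying samples.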

How the results depend on the processing

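The 9 tested genes gave 45 values over 5 comparisons. Direction and call were kept in 276 of 306 values from alternatives at the threshold of 0.05 that kept all libraries, or compared 2 groups alone, and in 498 of 540 values with 1 library left out. Library size alone called all 9 genes for IFNγ + LPS against M0 (3 higher and 6 lower), in place of 5, and turned Plin3 to -0.35 there and to -0.22 under DGAT1i, and Fitm2 under DGAT1i to -0.30. Relative to the median of all genes at -0.46, Plin3 remained above it. It also ended the call of Pnpla2 for IFNγ + LPS under DGAT1i (0.14, adjusted p = 0.0627, edgeR). Of all genes, it called 2340 higher and 7002 lower for IFNγ + LPS, in place of 4361 and 4254; 2333 and 6799 for IFNγ + LPS under DGAT1i, in place of 4152 and 4151; 885 and 2092 for DGAT1i in M0, in place of 1298 and 1571; and 1229 and 882 for the difference of responses, in place of 1019 and 1152.

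For the difference of responses, 2 genes were called in place of 1 with RLE size factors, library size alone, an adjusted p under 0.1 or the replicate block, Mgll being the addition, and 1 to 3 with a library left out. The difference of Plin2, near 0 throughout, turned to 0.011 with RLE size factors, 0.0090 with DESeq2 and 0.044 with library size alone, and that of Bscl2 to 0.0069 with library size alone. With a library left out, values that changed sign ranged from -0.079 to 0.29 for Fitm2 and DGAT1i in inflammatory macrophages, -0.052 to 0.23 for Fitm2 and -0.12 to 0.10 for Mgll with IFNγ + LPS under DGAT1i, -0.015 to 0.25 for Mgll and DGAT1i in M0, and -0.058 to 0.024 for Plin2 and -0.095 to 0.018 for Bscl2 in the difference. Without a filter, Plin3 for IFNγ + LPS under DGAT1i was 0.14 (adjusted p = 0.0692) and Plin2 was -0.13 (0.0390, edgeR). The cause of these changes was not tested.

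Libraries of the same replicate number deviated together weakly at most (correlations -0.02 to 0.07, 0 of 18 pairs over 0.1). The median was 0.012, beside -0.0045 for pairs of different numbers. Whether such libraries shared a culture or animal cannot be told from these values. With the replicate block, 8635, 3568, 2959, 8310 and 2268 genes were called in place of 8615, 3508, 2869, 8303 and 2171, and 5, 6, 4, 6 and 2 of the 9 genes, in the order IFNγ + LPS, DGAT1i in IFNγ + LPS, DGAT1i in M0, IFNγ + LPS under DGAT1i and the difference. Of 12 libraries, 2 were closest to their own number in every other group. Depth limited G0s2 and Dgat2, and Fitm2 had wide intervals.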
